A study of Macaca mulatta with 24 samples.

Results

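Pairs of neighbouring positions that probably hold the 2 strands of the same CpG were examined in reduced-representation bisulfite sequencing (RRBS) data of omental white adipose tissue from female rhesus macaques. A pair was any 2 rows of the methylation table on the same autosome (chromosomes 1 to 20) whose positions differed by exactly 1 bp. This gave 11248 pairs, which took up 21935 of the 790368 autosomal rows (2.78%) and of 841143 rows in all. The table does not give the strand of a row, so the rows of a pair are called here the lower row (lower coordinate) and the upper row (higher coordinate).

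The tissue came from 24 animals in 4 groups of 6, which crossed an implant with a diet. C animals had cholesterol implants and ate monkey chow, and T animals had testosterone implants on the same chow. WSD animals had cholesterol implants and a high-fat western-style diet, and T+WSD animals had testosterone implants with that diet. The labels give an age of 4 years for all animals, and biopsies were taken in year 3 of treatment. The methods of the study describe the animals as older than the labelled age at biopsy. Testosterone served as a model of hyperandrogenemia, the androgen excess of polycystic ovary syndrome. Omental fat was taken whole, so a change in the mix of cell types and a change within a cell type cannot be told apart in any value below.

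A CpG reads the same on both DNA strands, so that each CpG holds a cytosine on either strand, at positions 1 bp apart. After replication the new strand lacks methyl groups, and the maintenance methyltransferase DNMT1, guided to such sites by UHRF1, copies the pattern of the old strand. Most CpGs are therefore methylated on both strands or on neither, and a CpG methylated on 1 strand only is called hemimethylated. Bisulfite turns unmethylated cytosines into uracil, and a sequenced fragment reports the strand it came from. Both rows of a pair thus rest on different reads of the same library. Their difference within an animal holds the error of both values and any true difference between the strands. It also holds any bias of the measurement that differs between strands, which cannot be told apart here from a true difference.

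Most pairs stood alone. Of the 11248 pairs, 10426 (92.7%) were runs of 2 rows with no further adjacent row. The other pairs came from longer runs of consecutive positions, of which 241 held 4 rows, 18 held 6 rows, 1 held 8 and 1 held 3. By the order of positions in the longer runs, 540 pairs took the place of a CpG and 280 bridged neighbouring CpGs, with the upper row of one and the lower row of the next. Pairs of the longer runs lay mostly at low methylation, and their median level was 0.855% in the 540 and 0.836% in the 280 pairs, against 46.4% in the pairs standing alone. The share of a chromosome's rows that lay in pairs ran from 2.48% on chromosome 4 to 3.06% on chromosome 15.

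Rows in pairs covered the same range of methylation as the other autosomal rows, with fewer at the high end. Their median level was 39.8%, against 62.4% in the other 768433 rows. Under 10% methylation lay 39.5% of the rows in pairs and 35.3% of the others, and above 80% lay 32.7% and 40.6%. Missing values made up 4.80% and 4.51%. For rows between 20% and 80% methylation the median SD within a group was 12.2 percentage points in pairs and 12.5 points in the others. These are descriptions of the whole table and carry no test.

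Both values of a pair were present in a median of 23 animals, and in all 24 animals for 3738 pairs. The number of pairs with both values ran from 7968 in T 16 to 10928 in C 3, with 8631 in C 5 and a median animal at 10425. T 16 lacked a value at 14.7% of all CpGs of the table and C 5 at 8.73%, and the median animal at 3.42%. For the noise of animals, the agreement with near CpGs and the calls, values without T 16, C 5 or both are given as well. Pooled values by methylation level and shares of rows with the same direction are given with all 24 animals only. No 2 animals had identical values, and the labels treat each animal as a separate sample.

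The first question was how well both rows agreed within an animal. Over all pairs and animals the median absolute difference was 4.3 percentage points, 74.96% of the differences were within 10 points, and 0.447% exceeded 50 points. The mean of the upper minus the lower row was 0.0326 points, so neither position was higher over the pairs as a whole. Across pairs of all levels, Pearson's r between both rows lay between 0.915 and 0.977 in the 24 animals, and across pairs of mean level 20% to 80% between 0.529 in T 16 and 0.805 in C 1. Pairs are not independent replicates, and these correlations are descriptions.

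Agreement depended on the methylation level. The median absolute difference was 0.58 points in the 3918 pairs with a mean level under 5%, 4.85 points between 5% and 10%, and 7.63 points between 10% and 20%. It was 10.71 points between 20% and 40% and reached 12.86 points in the 730 pairs between 40% and 60%. At the other side it was again 10.71 points between 60% and 80%, 7.95 points between 80% and 90%, 5.26 points between 90% and 95%, and 3.03 points in the 1058 pairs above 95%. Each animal followed this course, and in the pairs between 40% and 60% the animals' medians ran from 10.9 to 20.7 points. T 16 was the highest there, and the next highest animal had 15.7 points.

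**Figure D1:**
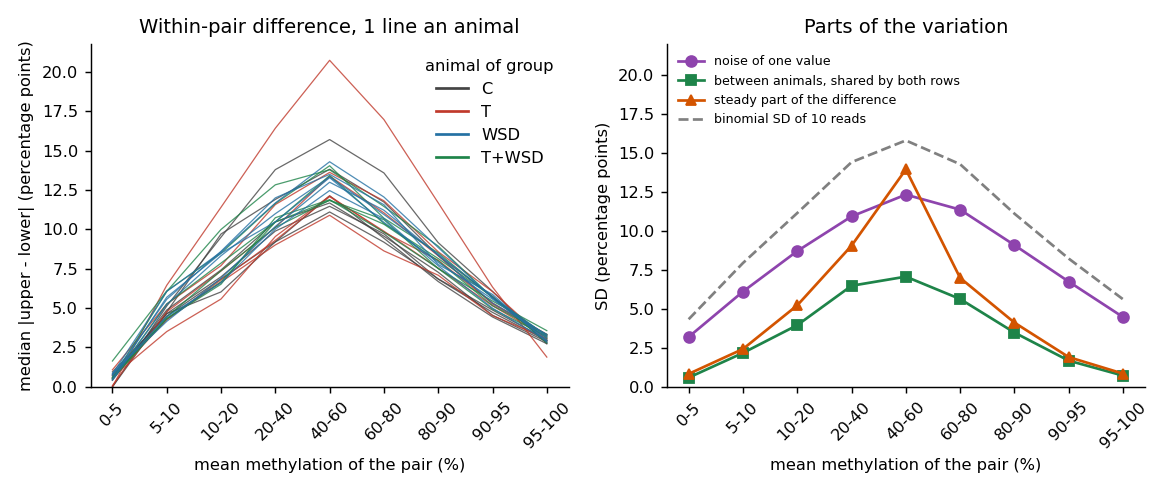
The left panel plots the median absolute difference between the upper and the lower row of a pair (percentage points) against the mean methylation of the pair (%), with 1 line for each of the 24 animals coloured by group. The right panel plots, in the same classes of level, the noise of a single value, the SD between animals that both rows share, the steady part of the difference and the binomial SD that 10 reads would give (all in percentage points). Differences were greatest in pairs between 40% and 60%, where T 16 lay above the other animals.

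The difference of a pair was next divided into a part that varied from animal to animal and a part that was the same in all animals. The first part gives the noise of a single value, which holds the error of its reads and any strand difference that varied between animals. This noise was 3.20 points in pairs under 5%, 10.9 points between 20% and 40%, 12.3 points between 40% and 60%, 11.4 points between 60% and 80%, and 4.47 points above 95%. For orientation, the binomial SD of a value from 10 reads, the coverage minimum of the authors, would be 4.34, 14.4, 15.8, 14.3 and 5.62 points at the mean levels of these classes. The noise lay under the binomial value in all 9 classes of level. The reads behind each value are not in the table, so the depth that the noise would correspond to is unknown.

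The variation between animals of a group that both rows shared was smaller than this noise. Its SD was 0.592 points under 5%, 6.49 points between 20% and 40%, 7.07 points between 40% and 60%, 5.63 points between 60% and 80% and 0.721 points above 95%. As a share of the variance of a value around its group mean, the part common to both rows was 26.0% between 20% and 40%, 24.7% between 40% and 60% and 19.7% between 60% and 80%. It was 3.31% in the class under 5% and 2.53% in the class above 95%. With the noise at 40% to 60%, a difference between the means of 6 and 6 animals at a single row would have a noise SD of 7.12 points. The steady part of the difference, common to all animals, was 13.95 points at 40% to 60%, 9.06 points at 20% to 40% and 0.830 points under 5%.

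Whether animals or groups differed in noise was compared over the 855 pairs of mean level 20% to 80% with both values in all 24 animals. Here the noise of an animal is the root mean square difference of its pairs divided by the square root of 2, which holds the steady part as well. In C the values were 9.96, 10.5, 10.9, 11.2, 13.4 and 14.4 points (11.7 ± 1.76, SD, n = 6), and the last 2 belonged to C 2 and C 5. In T they ran from 10.1 to 18.2 with a median of 10.9 points (12.1 ± 3.07, SD, n = 6), and T 16 was the only T animal above 12.2 points. The WSD animals lay between 11.2 and 12.7 points (11.8 ± 0.588, SD, n = 6), and the T+WSD animals between 10.6 and 12.8 points (11.5 ± 0.883, SD, n = 6). All 4 groups overlapped.

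No group differed from C in this noise beyond the spread between animals. The difference from C was 0.420 points in T (two-sided exact permutation test over all splits of 6 against 6 animals, p = 0.812), 0.117 points in WSD (exact p = 0.877) and -0.208 points in T+WSD (exact p = 0.803). Each was 0.877 after Benjamini-Hochberg adjustment over the 3 comparisons, and the smallest p the splits allow is 0.00216. Single animals set the sign of these differences. T minus C was -0.796 points without T 16, and T+WSD minus C was 0.327 points without C 5.

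The noise of an animal moved with its share of missing values. Over 24 animals Pearson's r between the noise and the percentage of CpGs without a value was 0.925 (permutation p = 1e-05, the smallest that 100000 permutations can give) and Spearman's rho was 0.864 (permutation p = 1e-05). After removal of T 16 and C 5, whose shares were farthest from the median, the coefficients were 0.741 (permutation p = 9e-05) and 0.824. By label, numbers 1 to 12 are C or T+WSD animals, numbers 13 to 24 are T or WSD animals, and no batch is named. Within animals 1 to 12 r was 0.935 (permutation p = 0.00013). Within animals 13 to 24 Pearson's r was 0.921 (permutation p = 0.00368), and Spearman's rho was 0.643 (permutation p = 0.0281). Without T 16 these were 0.554 (permutation p = 0.0784) and 0.536 (permutation p = 0.0945) over 11 animals, so r fell and rho changed less. These are 2 measures of the same library, and the part of depth in the relation was not tested.

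**Figure D2:**
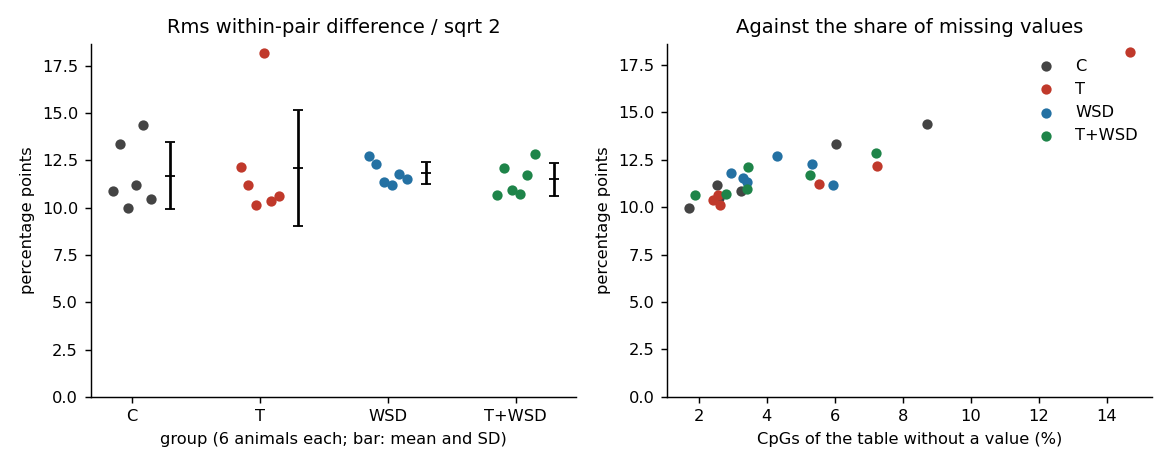
The left panel plots the noise of each animal (root mean square within-pair difference divided by the square root of 2, percentage points) by group, with the mean and SD of the 6 animals beside the points. The right panel plots the same values against the percentage of CpGs without a value. T 16, at 18.2 points and 14.7% missing, stands apart from the other animals in both panels.

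Pairs were also compared with other neighbouring CpGs, to see how much closer 2 strands are than 2 nearby sites. Over features of mean level 20% to 80%, the median absolute difference of the median animal was 11.2 points in the 2613 pairs (1 bp), 9.86 points in the 4533 neighbouring rows 2 bp apart, 11.97 points at 3 to 5 bp and 12.5 points at 6 to 10 bp. It was 14.6 points at 11 to 20 bp, 17.2 points at 21 to 50 bp and 20 points at 51 to 100 bp. The pairs thus lay a little below rows 2 to 10 bp apart as 1 class. The mean over animals was 11.5 points in pairs and 12.2 points in those rows, a difference of -0.667 points (two-sided permutation test over 24 animals, p = 0.0108), and pairs had the larger value in 5 of 24 animals.

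The size and sign of this difference depended on what was set beside the pairs. Against rows 11 to 50 bp apart it was -4.72 points, and without T 16 the main difference was -0.831 points. Against rows exactly 2 bp apart it had the opposite sign, with pairs 1.52 points higher (permutation p = 1e-05). Rows 2 bp apart can be read on the same fragment and the rows of a pair cannot, and the part of shared reads was not tested. The root mean square difference of the median animal, which weighs large differences more, was 18.6 points in pairs, 25.1 points at 2 bp and 27.4 points over 2 to 10 bp. By this measure pairs agreed better than near CpGs, with a difference of -8.57 points (permutation p = 1e-05).

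**Figure D3:**
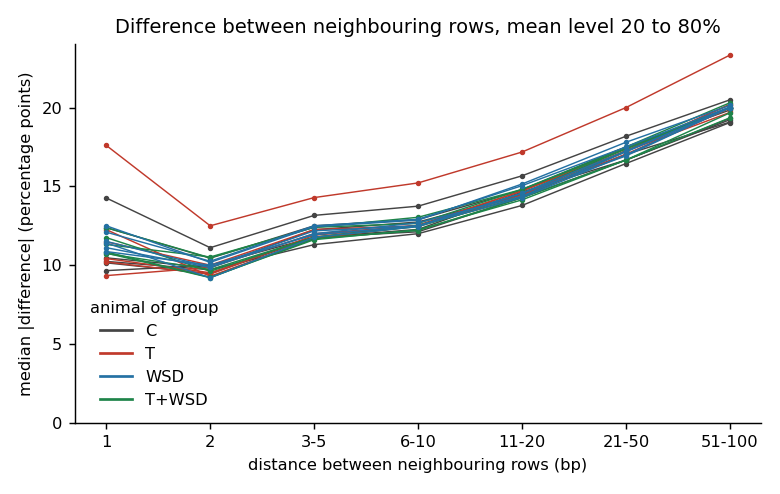
The plot shows the median absolute difference between neighbouring rows of mean level 20% to 80% (percentage points) against their distance (bp), with 1 line for each animal coloured by group; pairs are the points at 1 bp. The median animal lay at 11.2 points at 1 bp, 9.86 points at 2 bp and 20 points at 51 to 100 bp.

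Bridging pairs served as a comparison inside the rule, since by their place in a run their rows would belong to different CpGs. The sequence was not used to check this. At mean levels of 20% to 80% the median animal had a difference of 13.6 points in the 22 bridging pairs, 11.7 points in the 48 pairs in the place of a CpG in longer runs and 11.2 points in the 2543 pairs standing alone. The animals' medians overlapped widely between these classes, from 8.02 to 19.8 points in bridging pairs and from 9.48 to 17.7 points in pairs standing alone, and no test was run on these few pairs.

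Pairs whose rows differed steadily were then sought among the 11177 pairs with both values in at least 3 animals of each group. For each pair the difference of the arcsine-transformed values was tested against 0 with limma, over the mean of the 4 groups. A pair was called at a Benjamini-Hochberg adjusted p under 0.05 and a mean difference over 10 percentage points. Of the 11177 pairs tested, 516 were called (4.62%), and 21.99% had an unadjusted p under 0.05. The upper row was higher in 255 of the called pairs and the lower row in 261. Without the minimum of 10 points, 1059 pairs passed the test. The pair just inside the minimum had a mean difference of 10.01 points and the one just outside had 9.97 points. Without T 16 and C 5 together 504 pairs were called.

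Most of the called differences were moderate and varied between animals. Of the 516 pairs, 397 differed by 10 to 20 points, 99 by 20 to 40 points and 20 by 40 points or more, and the median was 14.6 points. The mean difference had the same sign in all 4 groups in 485 pairs, and at least 80% of the animals shared a sign in 385. In 43 pairs every animal with both values had the same sign, and 13 of these had values in all 24 animals. In the median called pair the difference spanned 57.6 points from the lowest to the highest animal, close to the 60.9 points of all tested pairs of mean level 20% to 80%.

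Called pairs lay at intermediate levels, where a difference of 10 points can fit and where noise is greatest. None of the 3893 tested pairs under 5% and none of the 1048 above 95% was called. The share was 18.05% of 687 pairs between 20% and 40%, 22.97% of 727 pairs between 40% and 60% and 11.3% of 1183 pairs between 60% and 80%. Between 80% and 90% it was 3.98%. By kind of pair, 495 of 10366 pairs standing alone were called (4.78%), 5 of 533 in the place of a CpG in longer runs (0.938%) and 16 of 276 bridging pairs (5.80%). At mean levels of 20% to 80% these shares were 16.5% of 2527, 6.25% of 48 and 27.3% of 22. Chromosomes ranged from 2.49% of tested pairs called on chromosome 9 to 6.43% on chromosome 17. Another called pair lay within 1 kb of 35 called pairs (6.78%), and 26 of these shared the sign of such a neighbour. Of all tested pairs, 35.9% had another tested pair within that distance. That share counts neighbours whether called or not, so it is not the value expected for called pairs.

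Of the 13 pairs with the same sign in all 24 animals, the 5 with the largest difference in each direction are described first. Pairs with missing values in some animals, among them wider gaps, come after them. In the first 5 the upper row was higher. Coordinates are of the rheMac8 build. No annotation or genome of that build was used, so genes and sequence are not given for any pair.

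The widest of these was chr2:121161175-121161176, with a mean gap of 74.0 ± 27.8 points (SD, n = 24; limma adjusted p = 3.85e-08). Its upper row was between 90.3% and 100% in all animals, with a median of 97.5%. Its lower row was at 2.38% or below in 13 animals, between 34.8% and 43.5% in 7 and between 55.6% and 80.8% in 4. The lower row thus fell into separate levels, and each of the 4 groups held animals at or below 2.38% and animals at 34.8% or higher. The other 4 rows within 100 bp had mean levels from 88.3% to 97.7%, close to the upper row.

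At chr1:24713356-24713357 the upper row was again near full methylation, with 90.5% in the lowest animal, a median of 96.5% and 100% in the highest. The lower row ran from 22.03% to 88% with a median of 40.9%, and the gap was 53.4 ± 16.6 points (SD, n = 24; limma adjusted p = 3.54e-11). In C the lower row ran from 32.7% through a median of 40.5% to 88%, in T from 42.3% through 51.1% to 63.3%, in WSD from 28.6% through 41.0% to 72% and in T+WSD from 22.03% through 29.4% to 38.5%. In the lower row each treated group overlapped with C. Every T animal lay above every T+WSD animal, but these 2 groups were not compared by a test. How many rows of the table show such an order was not computed. The gap of this pair was not called in any of the comparisons with C or in the interaction.

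The other 3 pairs with a higher upper row had smaller gaps. At chr19:5232399-5232400 the lower row had a median of 60.6% (32.1% to 92%) and the upper row of 87.6% (63.2% to 100%), with a gap of 26.8 ± 13.8 points (SD, n = 24; limma adjusted p = 1.41e-06). At chr6:170967685-170967686 the medians were 77.1% and 92%, and the gap was 14.6 ± 9.52 points (limma adjusted p = 3.48e-05). In these 2 pairs the rows overlapped between animals, although within each animal the upper row was higher. At chr3:51477154-51477155 the upper row was at 100% in the median animal and 90.6% in the lowest, and the lower row ran from 75% to 97.9%. That gap was 13.2 ± 6.84 points (SD, n = 24; limma adjusted p = 6.23e-10), and 23 of the 24 upper values were 100%.

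The lower row was higher in the other 5 pairs. At chr7:131795706-131795707 it ran from 17.6% through a median of 58.4% to 79.1%, and the upper row from 2.65% through 10.99% to 24.2%. The upper minus the lower row was -44.8 ± 13.2 points (SD, n = 24; limma adjusted p = 2.13e-11), and the group means lay between -46.3 points in WSD and -42.7 points in T+WSD. Methylation differed between the rows before and the rows after the pair. The 4 other rows in the 100 bp before it had mean levels from 6.97% to 18.8%. The rows from 5 to 70 bp after it had mean levels from 57.3% to 84.0%. Within the pair the order was the reverse, with a mean of 55.6% in the lower row and 10.8% in the upper row.

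At chr20:50740365-50740366 the lower row had a median of 80.7% (57.9% to 100%) and the upper row of 45.7% (32.6% to 73.5%), and the gap was -32.4 ± 11.996 points (SD, n = 24; limma adjusted p = 2.15e-07). At chr4:164831914-164831915 the medians were 80.5% and 50%, with a gap of -30.1 ± 14.2 points (limma adjusted p = 2.92e-07). The smallest gap there was -2.99 points, in a T+WSD animal, and the largest -56.1 points, in a C animal. No other row lay within 100 bp of this pair.

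The last 2 pairs were at lower levels. The pair chr11:93916566-93916567 was a bridging pair by its place in a run, and its medians were 46.7% in the lower and 22.8% in the upper row (gap -24.2 ± 9.72 points, SD, n = 24; limma adjusted p = 4.65e-07). At chr7:126715890-126715891 they were 56.6% and 37.95%, and the gap of -20.1 ± 12.6 points (SD, n = 24; limma adjusted p = 8.98e-06) ran from -56.2 to -2.31 points. All 10 pairs kept their call in each other setting in which they could be tested.

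**Figure D4:**
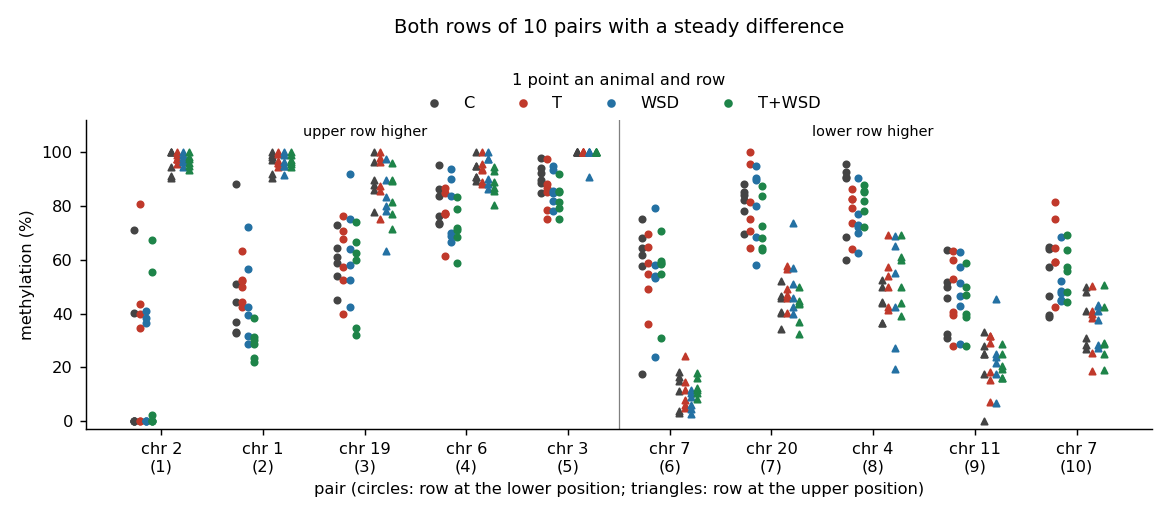
The plot shows the methylation (%) of the lower row (circles) and the upper row (triangles) of the 10 named pairs in each animal, with groups by colour and chromosomes on the axis. The upper row was higher in all animals in the first 5 pairs and the lower row in the last 5, and the lower row of the first pair lies near 0 in 13 animals.

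A few pairs had 1 row that was nearly unmethylated while the other was methylated. A mean under 5% in one row and over 50% in the other was found in 8 called pairs. The 8 largest gaps of all called pairs, which are not the same set, were chosen for description after their values had been seen. The largest was chr1:24713352-24713353, where the lower row was at 0% in all 22 animals with both values and the upper row between 95.8% and 100% (mean 98.8 ± 1.21%, SD). At chr1:24713320-24713321 the lower row was likewise at 0% in all 22 animals and the upper row between 76.7% and 95.8%. Together with the pair at chr1:24713356 described above, 3 pairs within 37 bp had an upper row far above the lower one, which was at 0% in 2 of them and at a median of 40.9% in the third, and the row at 24713417, on the far side of them, had a mean of 94.7%.

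The reverse order was seen at chr1:43272164-43272165, where the lower row was at 99.1 ± 2.26% and the upper row at 1.23 ± 3.52% (SD, n = 20), and at chr14:79577918-79577919, at 96.4 ± 5.82% and 0.405 ± 1.76% (SD, n = 19). At both places the other 3 rows within 100 bp were highly methylated, with means from 92.6% to 97.1% at the first and from 91.6% to 97.4% at the second. The row at chr15:104150480 was at 80.5 ± 11.2% and its upper row at 0.955 ± 2.22% (SD, n = 22). Low lower rows were found at chr14:6870040 (2.33 ± 3.10% against 90.8 ± 8.33%, n = 19) and chr6:143177545 (0.715 ± 3.20% against 75.6 ± 13.01%, n = 20). At chr2:7103635 the mean of the lower row was not under 5% (16.9 ± 14.7% against 94.4 ± 9.26%, n = 23). Other rows within 100 bp had means from 88.1% to 97.4% at chr14:6870040. Their means varied more at chr15:104150480 (33.7% to 93.0%), chr2:7103635 (24.6% to 91.8%) and chr6:143177545 (43.6% to 92.8%). Neither the part of sequence variants nor any other cause of the gaps in these pairs was tested.

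The groups were compared next in the strand difference, to ask whether an implant or diet changed the gap between both rows. With limma and the thresholds above, 0 of 11177 pairs were called (0%) in T against C, in WSD against C, in T+WSD against C and in the interaction of both factors. Unadjusted p-values under 0.05 were found in 4.92%, 5.31%, 4.52% and 5.40% of the pairs (550, 594, 505 and 604). The lowest adjusted p was 0.836, 0.382, 0.719 and 0.266, respectively.

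The mean of both rows was then tested as 1 measurement of a CpG. At 40% to 60% methylation the noise of such a mean was 8.72 points, against 12.3 points for a single row. In T against C and in WSD against C no pair was called by limma (0%), and 725 (6.49%) and 808 (7.23%) had an unadjusted p under 0.05. For the interaction 0 pairs were called (0%) and 649 (5.81%) had such a p. Each group is its own run of animal numbers, so if the numbering followed a batch, no contrast between groups could be told apart from it. In T+WSD against C, 8 of 11177 pairs were called (0.0716%), 4 higher and 4 lower, and 1030 (9.22%) had an unadjusted p under 0.05. All 8 pairs stood alone. They were called for a difference between C and T+WSD, so the separation of these 2 groups in the values below follows from the selection.

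The gains were led by chr10:64763955-64763956. Its pair mean ran from 3.37% through a median of 12.5% to 27.8% in C, from 14.7% through 25.9% to 39.96% in T, from 19.8% through 31.8% to 53.4% in WSD and from 33.9% through 41.7% to 53.2% in T+WSD. T+WSD lay above C in every animal, and T and WSD overlapped with both. The group means were 14.6 ± 8.80% in C and 42.4 ± 7.04% in T+WSD (SD, n = 6 each), a difference of 27.8 points (limma adjusted p = 0.0496). The lower row differed by 34.2 points and the upper row by 21.4 points.

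At chr11:46169472-46169473 the pair mean ran from 18.4% through 37.9% to 49.7% in C and from 54.4% through 63.5% to 68.8% in T+WSD, while T (39.1% to 44.6%) lay within the C range and WSD (35.2% to 58.3%) overlapped with both. The difference of 27.0 points had the lowest adjusted p of the 8 (limma adjusted p = 0.0396), with 25.4 points in the lower and 28.6 points in the upper row. At chr3:61525089-61525090 the values ran from 22.4% through 31.3% to 40.9% in C and from 41.9% through 51.9% to 57.7% in T+WSD, a difference of 20.01 points (limma adjusted p = 0.0496). The fourth gain, at chr15:2750632-2750633, was 19.5 points, from 33.8 ± 4.01% in C to 53.3 ± 8.79% in T+WSD (SD, n = 6 each).

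The largest loss was at chr15:10646558-10646559. Its pair mean ran from 70.5% through 74.3% to 81.8% in 5 C animals and from 46.3% through 59.7% to 62.8% in 5 T+WSD animals, so that the groups did not overlap, and the difference was -17.4 points (limma adjusted p = 0.0496). At chr15:6359507-6359508 C ran from 74.0% through 77.9% to 86.7% and T+WSD from 54.2% through 62.4% to 70.7%, a difference of -16.7 points. WSD, from 59.2% to 67.4%, also lay below all C animals there. At chr16:2350090-2350091 C ran from 92.3% through 93.4% to 98.7% and T+WSD from 68.0% through 80.4% to 82.2%, a difference of -16.0 points, with -23.1 points in the lower and -8.78 points in the upper row. The fourth loss was -14.8 points at chr14:10082227-10082228, from 93.6 ± 3.73% (SD, n = 5) in C to 78.8 ± 3.97% (SD, n = 6) in T+WSD.

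**Figure D5:**
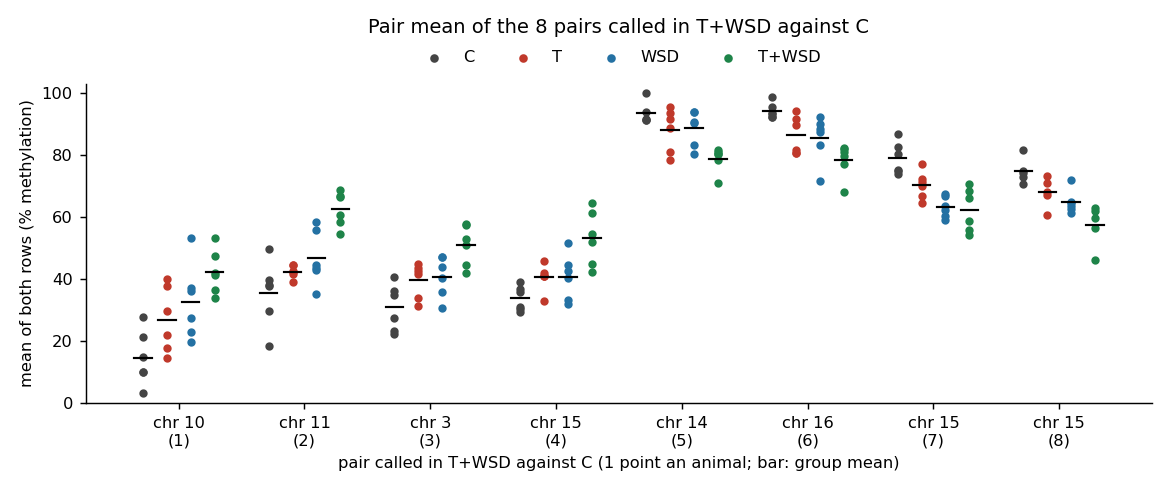
The plot shows the mean of both rows (% methylation) in each animal for the 8 pairs called in T+WSD against C, with groups by colour and a bar at the group mean; pairs 1 to 4 were higher and pairs 5 to 8 lower in T+WSD. C and T+WSD animals do not overlap in any of the 8 pairs, which were called for a difference between these 2 groups. The bars of T and WSD fall between the bars of C and T+WSD, an order that this selection favours.

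The lower and the upper row of all 8 pairs differed in the same direction, which calling on the mean of both rows favours. No row was called when tested by itself over the whole table, with limma adjusted p from 0.0921 to 0.588. In each of the 8 pairs the T mean and the WSD mean fell between the means of the other 2 groups. Selection for a large difference between C and T+WSD favours this order, and its share over all tested pairs was not computed. The calls were close to the threshold. The limma adjusted p lay between 0.0396 and 0.0496, and no pair was called without C 1, C 3, C 4, C 5, T 13, T 14, T 15, T 17, WSD 23, T+WSD 8 or T+WSD 10. Without T 16, 17 pairs were called. With only C and T+WSD in the fit 0 pairs were called, and with untransformed percentages 1 was. The 8 differences kept their sign in each setting, which their selection for a large difference favours.

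Single rows were tested over all 841143 CpGs of the table with limma, with the same thresholds. In T against C 47 rows were called (0.00559%), in WSD against C 47 (0.00559%), in T+WSD against C 58 (0.0069%) and in the interaction 146 (0.0174%). Rows in pairs made up 0, 0, 1 and 2 of these, and in no pair were both rows called. Unadjusted p-values under 0.05 were about as common in rows of pairs as in all rows, with 5.84% and 5.58% in T, 6.20% and 6.28% in WSD, 7.50% and 7.61% in T+WSD, and 5.54% and 5.42% in the interaction.

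The partner rows of the 3 called rows were not called, and 1 of them had the direction of its called row. At chr1:102109681 the lower row ran from 62.9% through 70.9% to 72.4% in C and from 52.1% through 56.2% to 59.0% in T+WSD, a difference of -13.3 points (limma adjusted p = 0.0377). Its upper row, 1 bp away, ran from 36% through 47.7% to 78.7% in C and from 32% through 51.9% to 68.4% in T+WSD, a difference of -4.01 points (limma adjusted p = 0.997). This call was kept in 11 of 24 fits that left out 1 animal each, and lost without C 1, C 2, C 3, C 5, C 6, T 14, T 17, T 18 or any T+WSD animal except T+WSD 7. The limma adjusted p was 0.0880 with C and T+WSD alone in the fit. The partner had the wider spread, with an SD of 16.9 points in C against 3.59 points in the called row.

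In the interaction the signs of both rows were opposite. The lower row at chr1:9226553 was at 93.9 ± 5.93% in C (SD, n = 5), 80.2 ± 9.66% in T (n = 5), 89.8 ± 5.57% in WSD (n = 5) and 100% in all 6 T+WSD animals, which gave an interaction of 23.9 points (limma adjusted p = 0.0467). The interaction in its upper row was -14.0 points (limma adjusted p = 0.896). The upper row at chr19:19777143 was at 100% in all 5 T and 6 WSD animals with a value, 97.7 ± 3.41% in C (SD, n = 5) and 87.3 ± 5.63% in T+WSD (SD, n = 4), an interaction of -14.9 points (limma adjusted p = 0.0291). In its lower row the interaction was 6.41 points (limma adjusted p = 0.932). Both calls were lost with untransformed percentages (limma adjusted p = 0.401 and 0.133). With 1 animal left out at a time, the call at chr1:9226553 was lost in 17 of 24 fits, all those without a T+WSD animal and those without C 1, C 2, C 3, C 5, T 13, T 16, T 17, WSD 19, WSD 20, WSD 22 or WSD 23. That at chr19:19777143 was lost in 14 of 24, all those without a WSD animal and those without C 2, T 13, T 15, T 16, T 17, T 18, T+WSD 7 or T+WSD 12. Both called rows thus had groups in which every animal was at 100% and the spread was 0.

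A wider set of rows was used to see how often a partner followed. Among pairs standing alone with a mean level of 20% to 80%, both rows differed from C in the same direction in 70.5% of 2543 pairs in T+WSD, 62.1% in WSD and 58.2% in T. For the interaction this share was 53.5%. Rows of pairs with an unadjusted limma p under 0.01 and a difference over 10 points were then taken, separately for lower and upper rows. In T+WSD the partner had the same direction for 163 of 174 lower rows (93.7%) and 154 of 176 upper rows (87.5%). In T these shares were 69.0% of 87 and 75.8% of 95, in WSD 72.5% of 109 and 75.3% of 97, and in the interaction 63.8% of 94 and 58.4% of 101.

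In the median, the partner's difference was smaller than that of the row that had been selected. Rows were selected for a large difference, so a smaller one in the partner follows from the selection alone. No reference value without a change was computed. The median ratio of the partner's difference to the row's own was 0.467 and 0.483 for lower and upper rows in T+WSD, 0.205 and 0.241 in T, 0.225 and 0.227 in WSD, and 0.146 and 0.0647 in the interaction. Across the 2543 pairs, Pearson's r between the differences of the lower and the upper row was 0.577 in T+WSD, 0.357 in WSD, 0.234 in T and 0.189 in the interaction. These values are given side by side as descriptions. The comparisons share the C animals, pairs are not independent, and differences between the comparisons were not tested.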

How the data were processed

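Methylation was measured by RRBS, in which MspI-digested DNA is bisulfite-converted and sequenced, with 1 library for each of 24 animals. The authors trimmed reads with Trim Galore 0.4.2 in its RRBS setting and aligned them with Bismark 0.16.1 to rheMac8 (FastQC 0.11.5 for quality). The values the authors deposited are the percent of reads that were methylated at a CpG in an animal, without scaling between animals, for CpGs with at least 10 reads in most animals of each group. Neither read counts nor strand are in the table, so the depth behind each value is unknown and no interval from reads was computed. Every column of per-sample values was matched to an animal by name, and its group was taken from the labels.

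The pairs and the lists of tests were chosen with earlier results of these data known. Missing values were left as missing. The methods of the study name an arcsine transformation of the rates, and the arcsine of the square root was used here. The within-pair difference, the pair mean and single rows were each fitted with limma 3.58.1 in R 4.3.3 with 4 group means and a shared residual variance, needing both values in at least 3 animals of every group for pairs. An equal fit in numpy 2.4.6 (Python 3.11.15, scipy 1.17.1, pandas 2.3.3) was tested on simulated data and checked against limma, with identical numbers of calls. Benjamini-Hochberg adjustment ran over all pairs, or over all rows of the table. P-values measure the spread between these animals. Noise per animal was compared by exact permutation tests, and correlations and distances by 100000 permutations.

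Named pairs followed a rule. Steady pairs were called pairs with values and 1 sign in all 24 animals, the 5 largest in each direction. In comparisons of groups, the 3 largest gains and losses among called pairs were named, at most 1 pair per 1 kb. The fourth gain and the fourth loss, the largest gaps and the called single rows were added after their values were seen. Alternatives covered the transformation, thresholds, missing values, kind of pair, samples in the fit and the omission of each animal.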

Additional observations from a re-analysis of the deposited data

Results flagged for a closer look

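Samples that stood apart from their group were sought in groups of 6 (or fewer where values were missing) with Dixon's test at the 95% level. Of 88 groups of values examined, 10 held such a sample, and chance gives about 1 in 20, or 4.4 of 88.

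The number of pairs with both values was low in C 5, at 8631 against 10209 in the next lowest C animal (C 2), and in T 16, at 7968 against 10020 in T 13. T 16 also had the highest noise of a value in its group, 18.2 points against 12.2 points in T 13, and the lowest correlation between both rows at mean levels of 20% to 80%, 0.529 against 0.703 in T 13. All of these are measures of the same library.

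Among the steady pairs, the gap at chr11:93916566 was -5.77 points in C 1, against -23.8 points in the nearest C animal (C 4), and the gap at chr7:126715890 was -12.9 points in T+WSD 11, against -23.1 points in T+WSD 9. Among the pairs called in T+WSD against C, the pair mean at chr14:10082227 was 100% in C 5, against 93.8% in C 6, and 71.0% in T+WSD 12, against 78.3% in T+WSD 11. At chr16:2350090 it was 68.0% in T+WSD 10, against 77.1% in T+WSD 8, and at chr15:10646558 it was 71.9% in WSD 21, against 64.7% in WSD 20.

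At 2 rows of pairs the interaction term of limma passed the threshold. The interaction was 23.9 points at chr1:9226553 and -14.9 points at chr19:19777143, and in neither pair did the partner row have the same sign. Both calls were lost with untransformed percentages, and the first was lost in 17 and the second in 14 of 24 fits that left out 1 animal each. If the numbering of animals followed a batch, this contrast cannot be told apart from it.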

How the results depend on the processing

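The number of steady pairs was 1059 without a minimum difference and 195 of the pairs with values in all 24 animals, where fewer pairs were tested. It ran from 487 to 526 when each animal was left out in turn. In T+WSD against C, the 8 calls in the pair mean became 1 with untransformed percentages, 29 at an adjusted p under 0.1, 16 over pairs with values in all 24 animals, and 0 when only these 2 groups entered the fit or C 5 and T 16 were left out. They ran from 0 to 17 with each animal left out. The cause was not tested. In the strand difference, 1 pair was called in T+WSD against C without C 5 and T 16, and leaving out each animal gave 0 to 1 calls in T, T+WSD and the interaction. It gave 0 to 1 in the interaction of the pair mean. Of single rows in pairs, the 2 interaction calls became 0 with untransformed percentages and without C 5 and T 16, and 0 with values in all 24 animals, where neither row could be tested. The 1 call in T+WSD became 7 at an adjusted p under 0.1 and 0 with only these 2 groups or without C 5 and T 16, and WSD gave 1 with only 2 groups. Leaving out each animal gave 0 to 2 single rows in T, T+WSD and the interaction, and 0 to 1 in WSD. The noise of a value against C was -0.115 points in WSD by the median absolute difference, and 0.000617 points in T+WSD over levels of 5% to 95%, both of the opposite sign. With each animal left out it ran from -0.796 to 0.955 points in T, -0.231 to 0.653 points in WSD and -0.557 to 0.327 points in T+WSD, and no exact p was under 0.292. Agreement against rows 2 bp apart was 1.52 points, the reverse of the main sign. The fits without C 5 and T 16, the agreement with near CpGs without T 16 and the rows 2 bp apart were added after seeing the data. No paired analysis was possible because the groups share no animal numbers. Of the 8 pairs called in T+WSD, the limma adjusted p ranged from 0.00661 to 0.153 over all settings. The 18 steady pairs named kept their call wherever they were tested, which their selection for large gaps favours. The unknown depth behind each value limits what a single row can show.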

Other observations

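Adjacent rows were also present outside chromosomes 1 to 20 and entered no comparison above. Chromosome X held 345 such pairs, with a median level of 50.99%. In the 164 of them with a mean level of 20% to 80% the median absolute difference was 11.9 points. Unplaced scaffolds held 338 pairs with a median level of 53.9%, and in the 96 of intermediate level the median absolute difference was 10.2 points. The mitochondrial sequence held 0 pairs.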
